A study of Mus musculus with 6 samples.

Results

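Aspg, Asns and Asrgl1 are the 3 genes described here, chosen by their symbol from 56980 listed genes. They were singled out after the fall of Aspg in older subcutaneous adipocytes had been seen in these data, so that fall is described without a test. The data are 6 single-nucleus RNA sequencing libraries of white fat of female C57BL/6J mice, in 3 groups of 2 libraries. One group was inguinal subcutaneous fat (SAT) taken at 2 months, another was SAT taken at 24 months, and the other was gonadal visceral fat (VAT) taken at 24 months. The older age is 24 months in the labels and 26 months in the design text, and the former is used. The SAT groups are called young and older SAT. VAT at 2 months was not used here, so the effect of age in VAT and the depots of young mice could not be compared. No genotype change or treatment is named for any group, and the labels do not tie libraries to mice, so p-values measure the spread between libraries. By the study's text both depots were collected from the same mice of an age, so VAT and older SAT are not independent, and which libraries share a mouse is not stated.

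Asparagine is made and broken down by separate enzymes. Asns, asparagine synthetase, builds asparagine from aspartate with the amide nitrogen of glutamine. Aspg, a cytosolic asparaginase that also carries a lysophospholipase domain, and Asrgl1, an asparaginase that also cleaves isoaspartyl peptides, can return asparagine to aspartate. Asns is a textbook target of the transcription factor ATF4, which is translated when amino acids run short. The same factor raises amino acid carriers and several aminoacyl-tRNA synthetases.

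All 3 genes are protein coding in GENCODE release M39 on GRCm39. Aspg (ENSMUSG00000037686) lies on the plus strand at chr12:112073076-112094007, with 15 exons in its canonical transcript. Asns (ENSMUSG00000029752) lies on the minus strand at chr6:7671667-7728461, with 12 exons. Asrgl1 (ENSMUSG00000024654) lies on the minus strand at chr19:9087230-9113000, with 7 exons. All barcodes together held 1331 unique molecular identifiers (UMIs, each 1 counted transcript) of Aspg, 880 of Asns and 2574 of Asrgl1.

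The promoters were searched because the amino acid response acts through a short element that C/EBP and ATF proteins share. In the 250 bases before the RefSeq start of Asns, the core TGATGNAA (N is any base, both strands searched) occurred 23 bases before the start, on the strand of the gene. It is shown on the minus strand of GRCm39 at chr6:7693214-7693243, with the matching bases in capitals.
Asns: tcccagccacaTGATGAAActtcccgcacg
This stretch lies in an exon of the GENCODE canonical transcript, whose start is 510 bases upstream of the RefSeq start. The core was found in 1134 of 32851 RefSeq promoters (3.45%). Neither the core nor the letters GTTACA, which are the core of the neighbouring nutrient element of Asns and were present in 2324 promoters (7.07%), occurred in the 250 bases of Aspg or Asrgl1. GTTACA was also not in the window of Asns, but that window ends at the RefSeq start with the letters GTT, and letters beyond it were not searched. These matches are letters in a window and say nothing of binding in these nuclei.

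Of 50859 barcodes, 27074 nuclei passed the filters on genes, UMIs and mitochondrial share, 2490 to 5776 per library, with a median of 1380 to 1878 UMIs per nucleus. Adipocyte-like nuclei numbered 7214, from 158 in replicate 2 of VAT to 2857 in replicate 1 of VAT. The labels name the cell type as adipocytes, but all nuclei of the tissue were present. In the adipocyte sums the 10 adipocyte markers together reached 13281 to 16238 CPM (UMIs scaled to a total of 1e+06 per sum), with none at 0, and the 10 immune markers 125 to 1444 CPM, highest in SAT at 2 months. The 10 markers of fibro-adipogenic progenitors (FAPs) reached 361 to 1219 CPM there, lowest in SAT at 2 months. The adipocyte sum of replicate 2 of VAT stood apart in the 8 ovary or oviduct markers, at 263 CPM against 16.2 to 60.8 CPM in the others, and in the 10 mesothelial markers, at 148 CPM against 19.3 to 54.1 CPM. Their part in its Aspg value was not tested. Any 2 libraries shared 29 to 61 barcodes, at most 0.769% of the smaller library.

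Over all libraries, most Aspg was found in adipocytes, which were 26.6% of all nuclei but held 829 of the 1099 Aspg UMIs in nuclei (75.4%). This was set by young SAT and replicate 1 of VAT. In older SAT adipocytes held 1 of 8 Aspg UMIs in replicate 1 and 14 of 35 in replicate 2, and in replicate 2 of VAT 2 of 20. They held 408 of 721 Asns UMIs (56.6%) and a smaller part, 18.5%, of the 1870 Asrgl1 UMIs.

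In SAT adipocytes at 2 months Aspg reached 198 CPM (366 UMIs in 893 nuclei) in replicate 1 and 184 CPM (163 UMIs in 507 nuclei) in replicate 2. At 24 months it was at 0.688 CPM in replicate 1, from a single UMI in 679 nuclei (exact 95% counting interval 0.0174 to 3.83), and at 2.55 CPM in replicate 2, from 14 UMIs in 2120 nuclei. The groups did not overlap, and both older libraries lay far below both young ones. The means were 191 ± 9.84 CPM at 2 months and 1.62 ± 1.31 CPM at 24 months (SD, n = 2). The fitted log2 fold change was -6.36 ± 0.58 (SE), and it ran from -7.78 to -6.00 when any 1 SAT library was left out. Genes across the same contrast were called in 14.5% of cases (1870 of 12914 tested, edgeR, adjusted p under 0.05, with 6.77% higher and 7.71% lower at 24 months), and the count was 738 without replicate 1 and 532 without replicate 2 of young SAT. Since this contrast brought Aspg to attention, its place in that count is no evidence.

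In VAT adipocytes at 24 months the libraries disagreed on Aspg. Replicate 1 held 35.6 CPM (283 UMIs in 2857 nuclei) and replicate 2 held 4.62 CPM, from 2 UMIs in 158 nuclei. Both values lay above both SAT libraries of the same age and below both young SAT libraries. The mean was 20.1 ± 21.9 CPM (SD, n = 2), and the fitted log2 difference from SAT at 24 months was 3.77 ± 0.59 (SE). Without replicate 1 of VAT, the lone library being taken to vary like the others, it was 1.10 ± 1.09, and without replicate 2 of SAT at 24 months it rose to 5.23. This comparison and the one by age share the SAT libraries at 24 months and are not independent. Across all genes, 0.132% were called between the depots (17 of 12914, with 0.0542% higher and 0.0774% lower in VAT), and 22 to 174 when any 1 older library was left out.

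The share of adipocyte nuclei with any Aspg UMI was also highest in young SAT. At 2 months it was 20.2% (exact 95% interval 17.6 to 22.9) and 18.5% (15.3 to 22.2). In SAT at 24 months it was 0.147% and 0.613%, and in VAT 4.31% and 1.27%. Nuclei of other named classes in the same libraries held Aspg in 1.60% and 0.486% at 2 months, in 0.312% and 0.651% in SAT at 24 months, and in 2.37% and 0.272% in VAT. The older SAT adipocytes were therefore not above the other nuclei of their own libraries, although their median depth was higher (1787 and 1989 against 1561 and 1701 UMIs). The share in young adipocytes was above that of the other nuclei in both libraries. The part of free RNA in these shares was not tested. Thinned to 1000 UMIs per nucleus, the shares were 12.5% and 14.0% in SAT at 2 months, 0.147% and 0.189% in SAT at 24 months, and 2.63% and 0% in VAT, with means of 13.3%, 0.168% and 1.31%. At equal depth the values of the older depots thus overlapped. Replicate 2 of VAT had no nucleus with Aspg among 158, too few nuclei to place it below older SAT.

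Single nuclei held up to 10 and 6 Aspg UMIs in the young libraries, 1 and 2 in SAT at 24 months, and 12 and 1 in VAT. Relative to adipocyte marker RNA, Aspg stood at 14.7 and 13.8 UMIs per 1000 marker UMIs at 2 months. The same ratio was 0.0424 and 0.159 in SAT at 24 months and 2.19 and 0.344 in VAT. By this ratio, as by CPM, both VAT libraries lay between young and older SAT, replicate 2 on the same 2 UMIs.

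**Figure D1:**
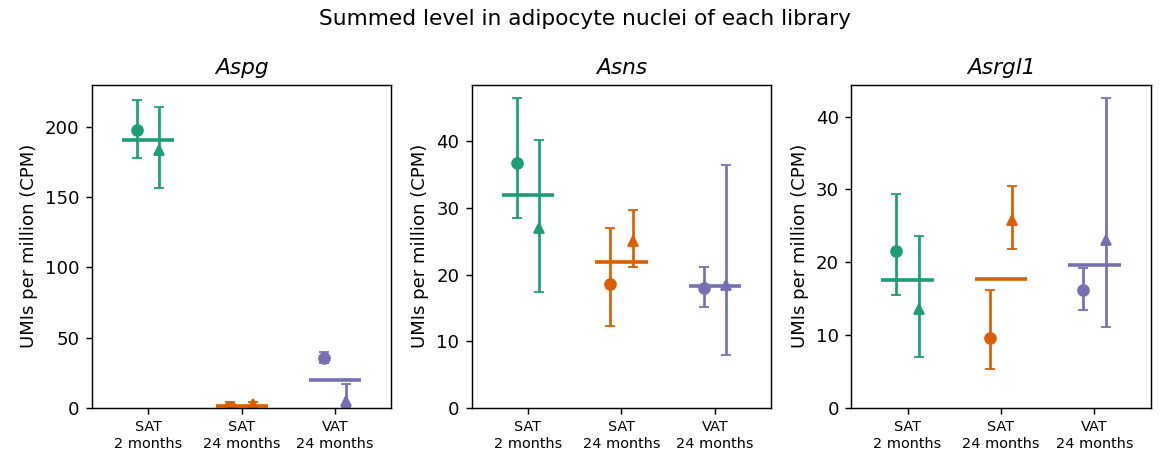
Level of Aspg, Asns and Asrgl1 (CPM, linear axes) in the summed adipocyte nuclei of each library, by group. Circles are replicate 1, triangles replicate 2, vertical bars exact 95% counting intervals and horizontal lines group means. Aspg stood near 191 CPM in SAT at 2 months and at 2.55 CPM or less in SAT at 24 months, while the other two genes overlapped between the SAT groups or lay close together.

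Among adipocytes of young SAT and VAT, Aspg was highest in sub-cluster 6, which was led by the fatty acid synthesis genes Elovl6, Acaca, Fasn and Acly and by the lipid droplet gene Cidea. The members themselves were not used to form the clusters, and the comparison of a sub-cluster with other adipocytes is a description. Among genes ranked by their fold in its 589 nuclei, pooled over all libraries, Aspg was at place 10, with a log2 fold of 2.09. The libraries differ in Aspg and in their share of sub-cluster 6, so this fold is not a value within a library. Aspg in sub-cluster 6 was at 409 and 422 CPM in young SAT. In SAT at 24 months, sub-cluster 6 held no Aspg UMI in replicate 1 (35 nuclei, where 3 UMIs would be 41.2 CPM) and 2 UMIs in 158 nuclei of replicate 2 (5.20 CPM), and the highest Aspg of both libraries was in sub-cluster 4, at 9.52 and 6.04 CPM from 1 and 2 UMIs. In replicate 1 of VAT, Aspg was at 416 CPM, and in replicate 2 it was at 80.3 CPM from 2 UMIs in 8 nuclei. The share of sub-cluster 6 nuclei with Aspg was 36.6% and 35.9% in SAT at 2 months, 0% and 1.27% in SAT at 24 months, and 35.0% in replicate 1 of VAT.

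Aspg was spread differently in the young SAT libraries and in VAT. In replicate 1 of VAT, 234 of its 283 adipocyte Aspg UMIs (82.7%) came from the 223 nuclei of sub-cluster 6, and Aspg outside it was at 6.64 CPM. Its other 9 sub-clusters of at least 20 nuclei ranged from 2.43 to 12.7 CPM. In SAT at 2 months Aspg outside sub-cluster 6 was still at 165 and 146 CPM, and the other sub-clusters ranged from 46.0 to 258 CPM in replicate 1 and from 22.5 to 261 CPM in replicate 2, whose lowest values rest on 2 and 3 UMIs in 45 and 50 nuclei of sub-clusters 5 and 3, at or under the level of 3 UMIs. In SAT at 24 months it was at 0.724 and 2.35 CPM outside sub-cluster 6. High Aspg in VAT thus rested on 1 sub-cluster of 1 library, whereas in young SAT it was not limited to sub-cluster 6.

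The genes that lead sub-cluster 6 did not all follow Aspg. Their summed level in that sub-cluster (the 10 leading genes other than Aspg) was 7698 and 8657 CPM in SAT at 2 months, 2694 and 4486 CPM in SAT at 24 months, and 17065 and 3173 CPM in VAT. Acaca, acetyl-CoA carboxylase, was there at 1966 and 2110 CPM at 2 months and at 770 and 1819 CPM at 24 months in SAT. Fasn, fatty acid synthase, was at 1337 and 1010 CPM at 2 months and at 110 and 1060 CPM at 24 months. In replicate 2 of SAT at 24 months both were thus near or within the young range, while Aspg was at 5.20 CPM. Acacb, the mitochondrial carboxylase that restrains fatty acid oxidation, was at 2547 and 3112 CPM at 2 months and at 289 and 335 CPM at 24 months, low in both older SAT libraries.

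Nuclei with Aspg were also compared with those without it, within a class and library, in their summed RNA of these genes. The largest gaps were in replicate 1 of VAT. There, the 18 FAP-like nuclei with Aspg held 3912 CPM of the leading genes of sub-cluster 6, against 398 CPM in FAP-like nuclei without Aspg. The 7 immune nuclei with Aspg held 6617 against 470 CPM, and adipocytes 14280 against 1789 CPM. In young SAT, nuclei with Aspg were higher by less, with 581 against 474 and 436 against 402 CPM in FAP-like nuclei, 483 against 358 and 691 against 375 CPM in immune nuclei, and 5609 against 3754 and 6692 against 4674 CPM in adipocytes. Elsewhere the direction was mixed. Nuclei with Aspg were lower in FAP-like nuclei of replicate 2 of VAT (189 against 428 CPM) and of replicate 2 of older SAT (144 against 551 CPM). They were also lower in immune nuclei of the same libraries (0 against 488 and 171 against 371 CPM). Each of these values with Aspg rests on at most 1 UMI of the leading genes. Adipocytes of replicate 1 of older SAT were lower too (0 against 963 CPM, from 1 nucleus). Nuclei with Aspg were higher in adipocytes of replicate 2 of older SAT (1650 against 1400 CPM) and of VAT (1782 against 1234 CPM, from 2 nuclei). The same held in immune nuclei of replicate 1 of older SAT (899 against 382 CPM, from 1 nucleus). The adipocyte markers did not follow one direction. In replicate 1 of VAT they were at 2427 against 1197 CPM in FAP-like nuclei with and without Aspg, with median doublet scores of 0.0788 and 0.0402, and at 3745 against 4007 CPM in immune nuclei, with scores of 0.0586 and 0.0706. In FAP-like nuclei of replicate 1 of young SAT they were at 415 against 851 CPM. The part of adipocyte RNA or doublets in these values was not tested.

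**Figure D2:**
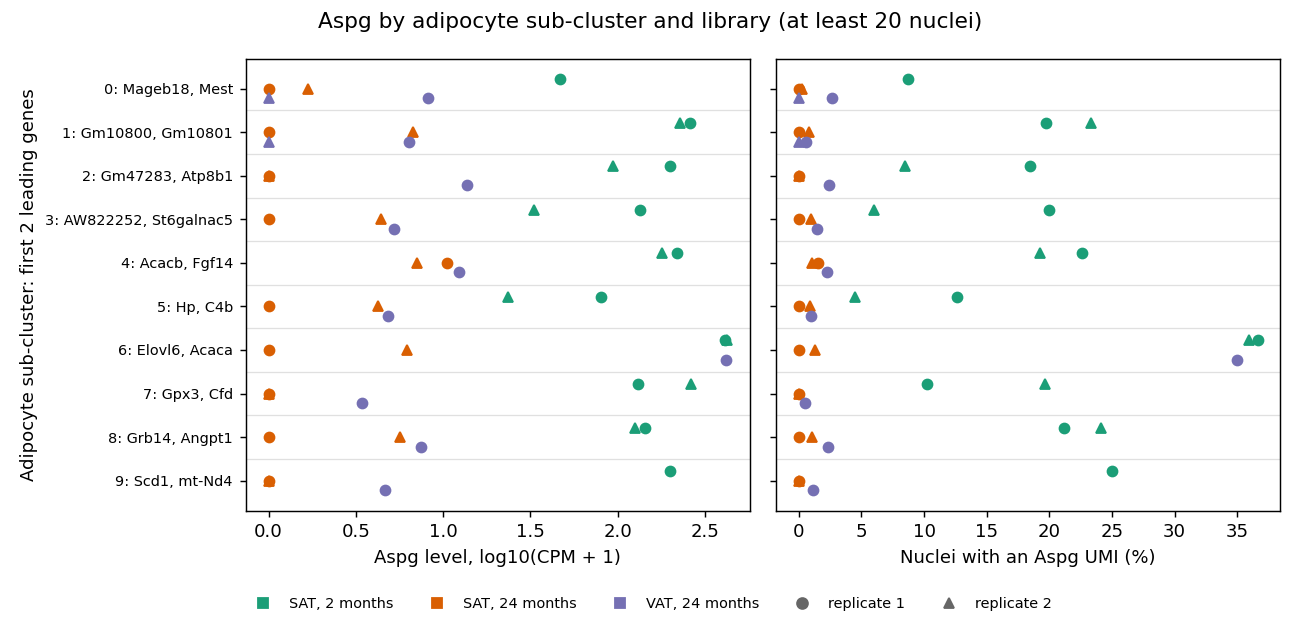
Aspg in the adipocyte sub-clusters, as log10(CPM + 1) at left and as the percent of nuclei with an Aspg UMI at right. Each point is 1 library with at least 20 nuclei of the sub-cluster, coloured by group, with circles for replicate 1 and triangles for replicate 2. In sub-cluster 6 the 2 young SAT libraries and replicate 1 of VAT lie together at 409 to 422 CPM, whereas VAT is at 12.7 CPM or less in the others.

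Over 41 sums of 1 class in 1 library, the genes whose log2(CPM + 10) was most like that of Aspg were 0610005C13Rik (Pearson r = 0.78), Aldh3b2 (0.75), Acsm3 (0.73), Gbp11 (0.72) and Lncbate1 (0.71), out of 11668 genes ranked. These sums share libraries and depth, so r is a description. Acsm3, a mitochondrial medium-chain acyl-CoA synthetase, was in adipocytes at 147 and 168 CPM in SAT at 2 months. It was at 4.13 and 9.64 CPM in the older SAT and at 31.1 and 16.2 CPM in VAT. Aldh3b2, an aldehyde dehydrogenase, was at 59.4 and 83.4, at 1.38 and 2.73, and at 4.53 and 0 CPM in the same groups. Acsm3 thus had the order of groups seen for Aspg, and for Aldh3b2 the depots overlapped.

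Over the 6 adipocyte sums alone, the most alike were Apbb3, Fgf14, 4930481A15Rik, Myom1 and Rnf144b, with r between 0.9925 and 0.998. Fgf14, a regulator of sodium channels, was at 672 and 706 CPM in young SAT, at 35.1 and 50.7 CPM in older SAT, and at 178 and 69.3 CPM in VAT. Rnf144b, a ubiquitin ligase, was at 67.5 and 67.6, at 4.13 and 4.00, and at 15.4 and 4.62 CPM. These 6 sums fall into 3 groups, and r here is a description only.

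Asns, which runs the reaction opposite to Aspg, did not share its pattern. Asns in adipocytes was at 36.7 and 27.0 CPM in young SAT, at 18.6 and 25.1 CPM in older SAT, and at 18.0 and 18.5 CPM in VAT. Both older SAT libraries lay below both young ones, but by little at the closest pair. The means were 31.9 ± 6.83, 21.8 ± 4.61 and 18.2 ± 0.342 CPM (SD, n = 2). The fitted log2 change with age was -0.39 ± 0.34 (SE), given with no test. Between the depots it was -0.25 ± 0.36 (SE), which did not pass the test (edgeR, adjusted p = 0.942).

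Asns was also found outside adipocytes. In FAP-like nuclei it was at 11.6 and 11.1 CPM in young SAT, at 25.3 and 24.5 CPM in older SAT, and VAT held 5.37 and 3.86 CPM. These groups did not overlap, yet they rest on 25 UMIs in all and the gene did not pass the count filter in FAPs. In epithelial nuclei of SAT Asns was at 17.2 and 15.1 CPM at 2 months and at 8.09 and 12.3 CPM at 24 months. The log2 change there was -0.65 ± 0.51 (SE) and did not pass the test (edgeR, adjusted p = 0.536), beside 7.61% of all genes called. Immune nuclei held 0 to 12.3 CPM. In endothelial nuclei Asns ranged from 4.64 to 38.3 CPM over the 6 libraries, with 46 of the 231 Asns UMIs of replicate 2 of older SAT (28.7 CPM, beside 25.1 CPM in its adipocytes). In mesothelial nuclei it ranged from 0 to 81.2 CPM, the highest in replicate 1 of young SAT from 8 UMIs.

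The genes most like Asns over the 41 sums were Elk1 (r = 0.74), Dusp18 (0.67), Gprc5b (0.65), Pth1r (0.64) and Mgst1 (0.62). Over the 6 adipocyte sums they were Vhl, Gm26684, Csta2, Depp1 and Kctd4 (r of 0.9913 to 0.9963). No gene was in both sets.

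Asrgl1, the other asparaginase, showed no common direction in adipocytes. It was at 21.6 and 13.5 CPM in young SAT, at 9.63 and 25.8 CPM in older SAT, and VAT held 16.1 and 23.1 CPM. The 3 groups overlapped. Its fitted log2 change with age was 0.20 ± 0.47 (SE), given with no test, and without 1 SAT library it ran from -0.67 to 0.71. Between the depots it was -0.01 ± 0.46 (SE), which did not pass the test (edgeR, adjusted p = 0.999).

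Asrgl1 was spread over the other classes, with 33.0% of its UMIs in immune nuclei, which were 38.4% of all nuclei, and 468 of 1870 in epithelial nuclei, which were 6.04%. By library the immune part ran from 5.5% to 61.4%. Asrgl1 in epithelial nuclei was at 76.2 and 57.4 CPM in young SAT, at 82.7 and 97.6 CPM in older SAT, and at 33.2 CPM in replicate 2 of VAT. The older SAT libraries lay above the young ones, and the log2 change of 0.41 ± 0.23 (SE) did not pass the test (edgeR, adjusted p = 0.361). In T cells it was at 50.9 and 26.5 CPM at 2 months and at 63.4 and 29.7 CPM at 24 months, which overlapped (log2 change 0.52 ± 0.34, edgeR, adjusted p = 0.369, with 13.3% of genes called). In B cells it was at 47.6 and 24.3, at 58.1 and 32.3, and in VAT at 76.4 and 116 CPM, the first of these from 3 UMIs, and the age change of 0.57 ± 0.53 did not pass the test (edgeR, adjusted p = 0.727, with 2.06% of genes called). The depot difference in B cells was 1.09 ± 0.55 (SE) on the log2 scale and did not pass the test (edgeR, adjusted p = 0.9998), beside 0 of 8107 genes called.

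Among classes where it passed the count filter, Asrgl1 had its largest fitted difference in mesothelial nuclei, the cells of the lining of the body cavity. It was at 30.5 and 40.8 CPM in young SAT, at 124 and 79.9 CPM in older SAT, and at 11.1 and 25.5 CPM in VAT. Neither the ages nor the depots overlapped. Here as for the other genes, 2 against 2 libraries without overlap cannot give an exact two-sided permutation p under 0.33. The depot difference was -2.10 ± 0.67 (SE) on the log2 scale, with an unadjusted p of 0.0155 and an adjusted p of 0.137 (edgeR), beside 5.8% of genes called (289 of 4980, and 43 to 928 genes when 1 library was left out). The age difference was 1.51 ± 0.75 (SE), with an adjusted p of 0.843 (edgeR) and no gene called by edgeR in that contrast (275 at an unadjusted p under 0.05, 3 called by DESeq2). The SAT sums rest on 131 nuclei at 2 months and 143 at 24 months.

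The genes most like Asrgl1 over the 41 sums were Larp1 (r = 0.76), Wnt5b (0.75), Wnk2 (0.74), Epb41l4b (0.72) and Ildr1 (0.71). Over the 6 adipocyte sums they were Npepl1, Cdk2ap1, Mxd4, Rps25-ps1 and Sec61g (r of 0.9812 to 0.9938).

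Aspg in FAP-like and immune nuclei was uneven between libraries. In FAP-like nuclei it was at 40.6 and 8.33 CPM in young SAT, at 0 and 12.3 CPM in older SAT, and VAT held 39.8 and 5.80 CPM. In both VAT libraries and in replicate 2 of older SAT this was above the adipocytes of the same library (35.6, 4.62 and 2.55 CPM), on 37, 3 and 4 UMIs in FAP-like nuclei. The log2 change with age was -1.35 ± 1.38 (edgeR, adjusted p = 0.768) and the depot difference 1.40 ± 1.32 (edgeR, adjusted p = 0.902, beside 0.0247% of genes called, 2 of 8096, and 529 of 9714 without replicate 1 of VAT). Without replicate 1 of young SAT the age change was 0.069, and without replicate 1 of VAT the depot difference was -0.66, so both turned direction on 1 library (ranges -6.42 to 0.069 and -0.66 to 6.47). In immune nuclei the corresponding values were -1.63 ± 1.51 (edgeR, adjusted p = 0.750) and 2.50 ± 1.67 (edgeR, adjusted p = 0.696), the latter turning to -0.66 without replicate 1 of VAT. There edgeR called 0 of 14292 genes in either comparison. The groups overlapped in FAPs for both comparisons. In endothelial nuclei Aspg was at 19.2 and 23.8 CPM in young SAT, from 4 UMIs. There it was at 0 and 0.623 CPM in older SAT, from 1 UMI. Epithelial nuclei held 2 of the 8 and 11 of the 35 Aspg UMIs of the older SAT libraries.

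Over FAP, immune, mesothelial, epithelial, T and B cell nuclei, 15 tests of a member passed the count filter and none was called by edgeR, with 1 at an unadjusted p under 0.05 (Asrgl1 between depots in mesothelial nuclei). DESeq2 called none either, with a lowest adjusted p of 0.0827. The background in these classes ranged from 0% of genes called by edgeR, as in FAPs and immune nuclei by age (14 and 79 genes by DESeq2, 844 and 1219 at an unadjusted p under 0.05 by edgeR), to 13.3% in T cells by age. None of the members passed the filter in endothelial nuclei or macrophages. The thinned share of nuclei with a member's UMI gave no exact two-sided permutation p under 0.33, the smallest that 2 against 2 libraries allow.

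**Figure D3:**
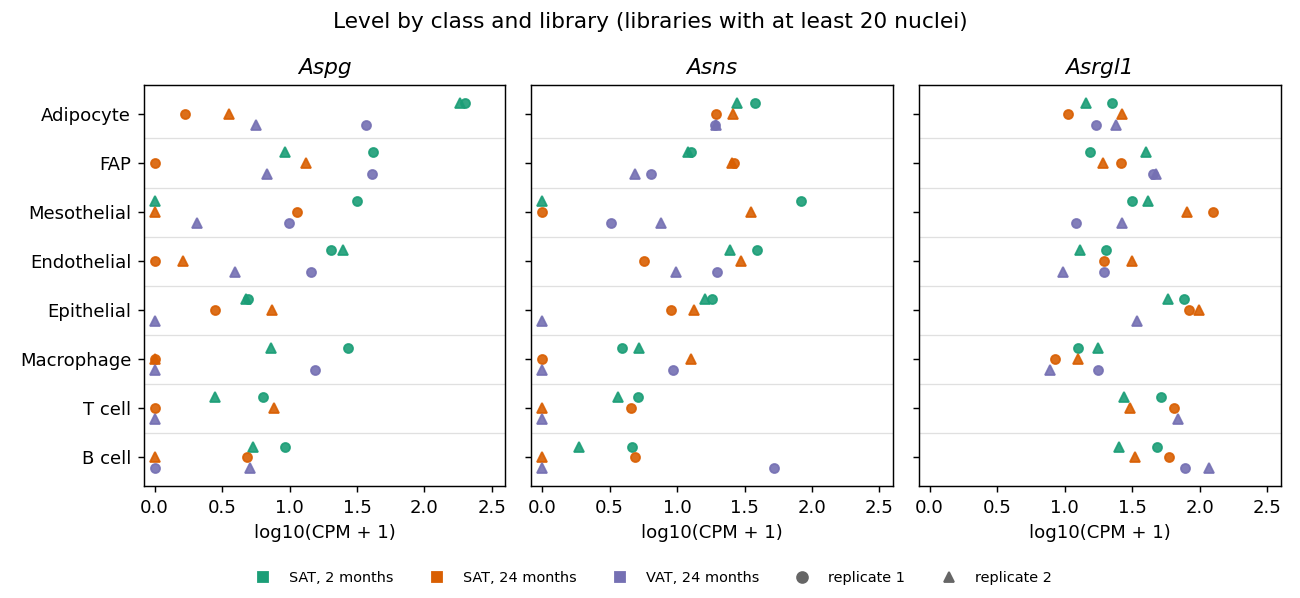
Level of each member as log10(CPM + 1) by class and library, for libraries with at least 20 nuclei of the class. Colours mark the groups, circles replicate 1 and triangles replicate 2. Aspg is highest in adipocytes of SAT at 2 months (198 and 184 CPM), and Asrgl1 lies at 57.4 CPM or more in epithelial nuclei of SAT.

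Other genes of the pathway were taken from 3 lists that leave out the members. In the list of aspartate and asparagine handling, 5 of 30 tested genes (34 listed) were called with age in SAT adipocytes, 2 higher and 3 lower, beside 14.5% of all genes. The median log2 change was 0.19, against -0.0019 over all genes. The count fell to 1 without either of the young libraries, to 4 without replicate 1 of older SAT and to 3 without replicate 2 of it. Between the depots no gene of the list was called by edgeR or DESeq2, and none had an unadjusted p under 0.05 by edgeR.

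Folh1, a peptidase that releases glutamate from N-acetylaspartylglutamate and folates, was at 2.16 and 1.13 CPM in young SAT, at 55.0 and 66.0 CPM in older SAT, and at 47.1 and 55.4 CPM in VAT. It rose by 5.19 ± 0.44 (SE, log2; edgeR, adjusted p = 4.95e-05) and stayed called under every alternative run. Gpt, cytosolic alanine aminotransferase, rose from 73.4 and 66.5 CPM to 95.6 and 144 CPM (log2 change 0.93 ± 0.26, edgeR, adjusted p = 0.032). Both older SAT libraries lay above both young ones for either gene. With library-size scaling Gpt was no longer called (adjusted p = 0.067).

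Ddo, D-aspartate oxidase, fell from 98.8 and 95.8 CPM at 2 months to 46.8 and 24.2 CPM at 24 months (log2 change -1.36 ± 0.33, edgeR, adjusted p = 0.0185). Glud1, mitochondrial glutamate dehydrogenase, fell from 152 and 135 CPM to 61.2 and 72.5 CPM (-0.94 ± 0.24, edgeR, adjusted p = 0.0239). Slc25a13, which exchanges mitochondrial aspartate for cytosolic glutamate, fell from 8.10 and 11.3 CPM to 1.38 and 0.545 CPM (-3.40 ± 0.92, edgeR, adjusted p = 0.0288). For these genes too the ages did not overlap, and VAT at 24 months was at 53.0 and 41.6 CPM for Ddo, 57.1 and 46.2 CPM for Glud1, and 1.76 and 6.93 CPM for Slc25a13. Glud1 was not called with DESeq2 or without the count filter (adjusted p = 0.059 and 0.077), nor Slc25a13 at Leiden resolution 1 (adjusted p = 0.053).

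Among the carriers of asparagine, aspartate and glutamine, 1 of 11 tested genes (15 listed; 9.09%) was called with age, beside 14.5% of all genes. Slc38a1, a sodium-coupled carrier of neutral amino acids, fell from 13.5 and 30.4 CPM to 3.44 and 4.54 CPM (log2 change -2.19 ± 0.65, edgeR, adjusted p = 0.0418), and it was not called with DESeq2 or with the clusters led by Gm10800 left out (adjusted p = 0.053 and 0.065). The median change of the list was -0.48, against -0.0019 over all genes. An unadjusted p under 0.05 was found for 5 of the 11, and for 3924 of 12914 genes in all. No carrier was called between the depots by edgeR or DESeq2, and 2 had an unadjusted p under 0.05 by edgeR, as did 890 of 12914 genes in all.

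In the list of the amino acid response, the targets and partners of ATF4, 4 of 31 tested genes (36 listed) were called with age, 2 in each direction, beside 14.5% of all genes, and the median change was -0.04 (all genes -0.0019). Stc2, a secreted glycoprotein of stressed cells, rose from 21.6 and 21.4 CPM to 55.0 and 57.4 CPM (log2 change 1.54 ± 0.29, edgeR, adjusted p = 0.00467). Atf5, a transcription factor of the same family, rose from 39.9 and 32.7 CPM to 48.1 and 83.1 CPM (1.01 ± 0.31, edgeR, adjusted p = 0.0458), and it was not called with DESeq2, library-size scaling, Leiden resolution 1 or the clusters led by Gm10800 left out (adjusted p = 0.11, 0.092, 0.051 and 0.06). In both the ages did not overlap.

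Slc7a11, the cystine and glutamate exchanger, fell from 25.4 and 31.5 CPM to 8.25 and 5.27 CPM (log2 change -1.98 ± 0.50, edgeR, adjusted p = 0.0218). Chac1, which degrades glutathione, fell from 14.6 CPM in both libraries to 0.688 and 2.55 CPM (-2.74 ± 0.70, edgeR, adjusted p = 0.0222). Atf4 itself was at 161 and 170 CPM at 2 months and at 175 and 242 CPM at 24 months and was not called. The share called in this list, 12.9%, was near that of all genes. Of the 10 genes called with age in the lists, Folh1 alone was still called without either young library. Without replicate 2 of older SAT, Ddo, Glud1, Slc25a13, Gpt, Slc38a1, Slc7a11 and Atf5 were no longer called, and without replicate 1 of it Glud1, Slc38a1 and Chac1 were not. Between the depots none was called by edgeR or DESeq2, with 2 of 31 at an unadjusted p under 0.05 by edgeR, beside the same 890 of 12914.

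**Figure D4:**
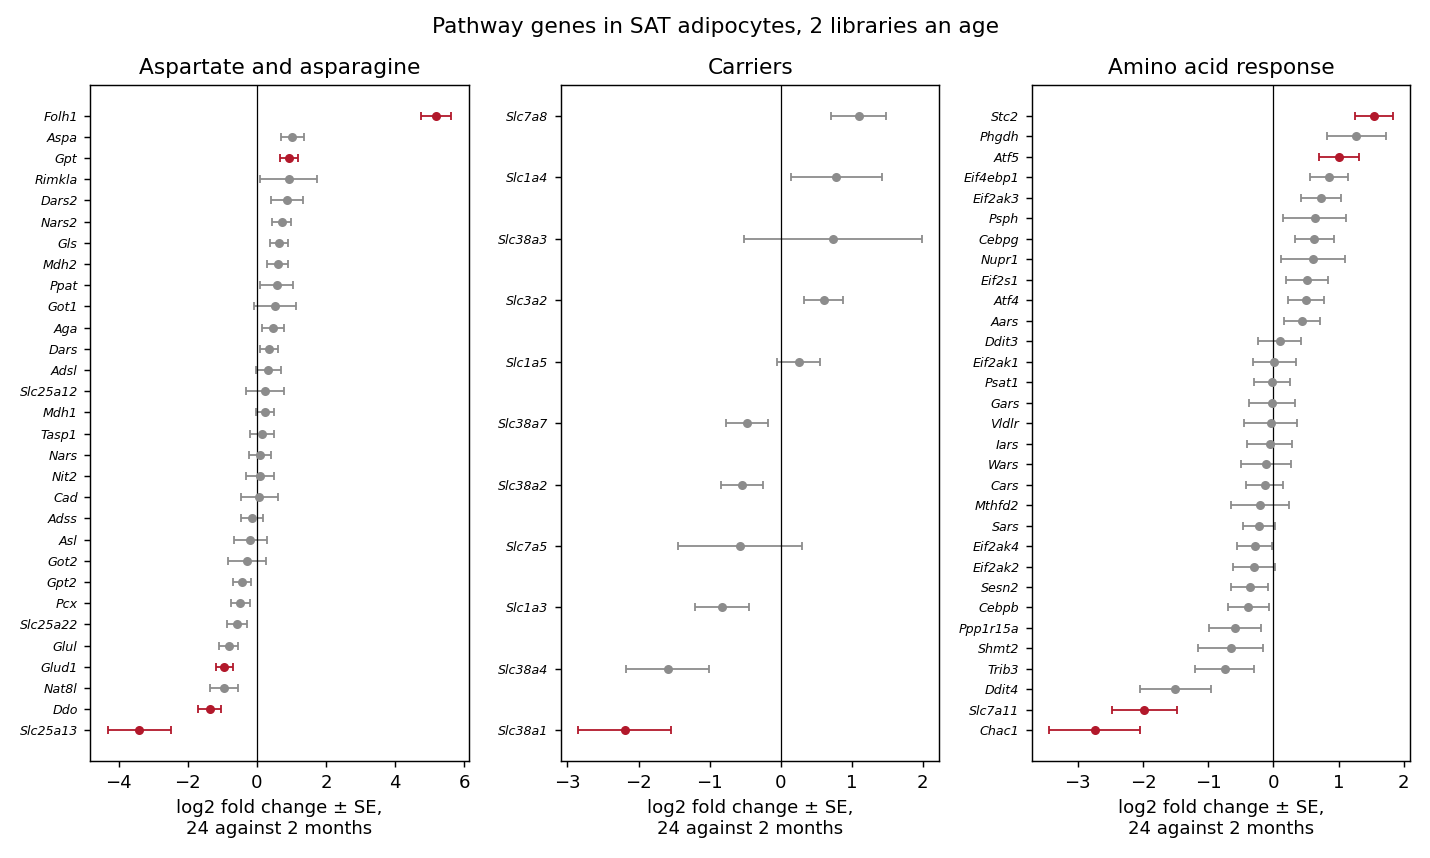
Log2 fold change ± SE of the tested genes of each list in SAT adipocytes, 24 against 2 months, 2 libraries per age. Red points passed the test (edgeR, adjusted p under 0.05) and grey points did not, giving 5, 1 and 4 red points in the lists of 30, 11 and 31 tested genes, with Folh1 at 5.19 the farthest to the right and Slc25a13 at -3.40 the farthest to the left.

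Overlapping genes can add to or take from a member's count, since use of strand in the counting is not stated. The microRNA genes Mir3073a and Mir3073b within Aspg had no UMI in any barcode, and its antisense transcripts Gm60072 and Gm60070 are not among the listed genes. The antisense 1700012J15Rik over Asns had 31 UMIs in all barcodes. Gm9750, antisense to Asrgl1, had 912 UMIs and was in adipocytes at 14.0 and 12.4 CPM in SAT at 2 months, at 6.19 and 3.64 CPM in older SAT, and at 4.28 and 20.8 CPM in VAT. Reads of Asrgl1 and Gm9750 at the ends they share cannot be told apart here.

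The protein-coding neighbours of Aspg did not show its range. Tdrd9, 37785 bases before it, was at 1.26 to 5.40 CPM over the 6 adipocyte sums, and Kif26a, 18634 bases after it, at 2.16 to 5.45 CPM. C1galt1, a glycosyltransferase gene beside Asns, was at 28.6 and 30.4 CPM in young SAT, at 53.6 and 54.2 CPM in older SAT, and VAT held 60.4 and 62.4 CPM. The ages did not overlap for C1galt1, in the direction opposite to the values of Asns.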

How the data were processed

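The authors isolated nuclei, captured them with the Singleron GEXSCOPE chemistry, and aligned and counted reads with Celescope on GRCm39. The version and annotation are not given in the sources used here. The deposited matrices hold raw counts of UMIs per gene and nucleus. Total UMIs per library ran from 8061862 to 16226690. Nuclei were kept where they had more than 500 genes, more than 1000 UMIs and a mitochondrial share below 15%, corrected by library with Harmony, clustered (Leiden, resolution 2) without the members, and named "X-like" from marker lists by a rule revised after clusters had been seen. Scrublet scored doublets, and none was removed in the main result. Sums per library and class with at least 20 nuclei were tested with edgeR 4.0.16 (R 4.3.3, quasi-likelihood, TMM, filterByExpr, 3 groups together), with Benjamini-Hochberg adjustment over all genes. Python 3.11.15, scanpy 1.11.5, leidenalg 0.10.2 and DESeq2 1.42.0 were also used. CPM were computed here from the counts, and are not per length, so levels were not compared between genes. Intervals and floors (3 UMIs) cover counting error only. The members and lists were chosen with earlier results of these data known. Named were the members, up to 8 called genes per list by adjusted p, the 5 most alike genes and the neighbours. Atf4, Acaca, Fasn and Acacb were named after their values were seen. Positions came from GENCODE M39 (56236 of 56980 genes found, 98.7%) and the promoter from RefSeq. The edgeR step was tested on simulated data.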

Additional observations from a re-analysis of the deposited data

Results flagged for a closer look

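Barcodes outside the filters and nuclei that no marker list named were used in no comparison, and the members were found in both. These values stand out because they exceed both SAT libraries at 2 months, or because VAT has no young libraries here to set them against. In barcodes outside the filters Aspg was at 25.8 and 5.31 CPM in VAT, beside 26.5 and 18.2 CPM in SAT at 2 months and 5.00 and 5.56 CPM in SAT at 24 months. Asns there was at 12.7 CPM in replicate 2 of SAT at 24 months, above the 12.01 and 3.54 CPM of SAT at 2 months, and at 7.93 and 6.14 CPM in VAT. Asrgl1 was at 49.7 CPM in replicate 1 of SAT at 24 months, above the 42.7 and 23.7 CPM of SAT at 2 months, and at 24.6 and 37.5 CPM in VAT. In unnamed nuclei of VAT, Aspg was at 30.5 and 3.83 CPM, Asns at 15.3 and 3.19 CPM, and Asrgl1 at 17.8 and 27.4 CPM. Unnamed nuclei held 12 and 6 Aspg UMIs in VAT, beside 40 and 17 in SAT at 2 months and 2 and 1 in SAT at 24 months. No source of these UMIs was tested.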

How the results depend on the processing

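Most values kept their direction and their side of the threshold, and the exceptions follow, with ranges for leaving out 1 library in turn. The cause was not tested. With age, calls over all genes ran from 532 to 1892 (lowest without replicate 2 of SAT at 2 months), and were 1995 with library-size scaling (647 higher, 1348 lower, all-gene median -0.17). Aspartate and asparagine calls were 8 with the replicate block, 8 under 5% mitochondrial share and 1 to 4 without 1 library. Carrier calls were 0 with DESeq2, 2 with no filter, 2 with 4 libraries only, 0 without clusters led by Gm10800 and Gm10801 (544 nuclei), and 0 to 2 without 1 library. Amino acid response calls ran from 0 to 6. Aspg ran from -7.78 to -6.00 and Asrgl1 from -0.67 to 0.71. Between depots, calls were 33 with DESeq2, 30 with the replicate block, 148 with no filter, 31 under 5% mitochondrial share and 22 to 174 without 1 library. Aspg ran from 1.10 to 5.23. Asrgl1 was 0.069 with DESeq2, 0.15 with the replicate block, 0.0010 without the top 5% of doublet scores, and -0.48 to 0.87 without 1 library. In other classes, without 1 library, by age Aspg in FAPs ran from -6.42 to 0.069, Asrgl1 in FAPs from -0.91 to 0.55, in immune nuclei from -0.84 to 0.53, in T cells from -0.37 to 0.99 and in B cells from -0.15 to 1.05. By depot Aspg ran from -0.66 to 6.47 in FAPs and from -0.66 to 3.86 in immune nuclei, and Asrgl1 in immune nuclei from -0.55 to 1.32. Asrgl1 in immune nuclei by age was -0.016 with DESeq2 and -0.022 with the replicate block. Thinned shares were 13.3% for Aspg in SAT at 2 months, 2.57%, 2.18% and 1.79% for Asns in young SAT, older SAT and VAT, and 1.78% and 2.33% for Asrgl1 in SAT at 2 months and VAT.

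Library numbers were not taken to pair the samples, since no label ties them. Deviations of same-numbered adipocyte sums correlated at 0.11 between SAT and VAT at 24 months. Between ages, where no mouse is shared, they correlated at -0.09 and 0.03. With 2 libraries per group these values cannot decide whether same-numbered older SAT and VAT libraries share a mouse. With the block, adipocyte calls by age were 2130, mesothelial depot calls 184 of 4980, B cell age calls 105 and FAP depot calls 0, and no member and no list gene named as called changed its call. Removal of doublets at Scrublet's own threshold, which marked 0.0519 to 0.562% of nuclei, was not run, and the top 5% of scores was removed instead. That and the removal of the Gm10800 clusters were chosen after seeing the data. Few adipocytes (158 in replicate 2 of VAT) and few UMIs limit the depot values.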
